A study of Mus musculus with 36 samples.

Results

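The genes described here are the heat shock proteins, J-domain proteins, chaperonin subunits, BAG proteins and HSP90 co-chaperones on a spotted mouse lung array, followed through hypoxia and recovery. They were chosen by gene symbol alone: every gene named by a single symbol that begins with Hsp (and a further letter or digit of the family names), Dnaj or Cct2 to Cct8, together with Tcp1, Bag1 to Bag6, Stip1 and Ahsa1, and without Hspg2, Hspa5, Hsp90b1 and Dnajb9. This gave 52 of the 6971 genes with a single symbol, measured by 100 spots. The name cytosolic and mitochondrial chaperones holds for most of them, but the symbol rule also kept Dnajb11, Dnajc3, Dnajc10 and Hspa13, which work in the endoplasmic reticulum, and Hspd1-ps3, a pseudogene of Hspd1. Hspa1a, Hspa1b, Hsp90ab1, Hspe1 and Cct6a were not analysed here.

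Whole lungs of BALB/c mice kept at 0.5 atm for 1, 3, 7, 14 or 21 days were set against lungs of time-matched control mice. Further mice spent 21 days at 0.5 atm and then 1, 3, 7 or 14 days back at sea-level pressure, called here days 22, 24, 28 and 35. At each of the 9 time points RNA of 5 exposed mice was pooled, RNA of 5 controls was pooled, and both pools were labelled with different dyes and hybridised together on 4 arrays, 36 in all. Every value is a log2 ratio of the exposed to the control pool, so that 1 stands for a doubling. A positive value is likely, not certain, to mean higher in the exposed lung, because no label ties a dye to a sample except by word order. With the sign turned, every gene called higher below would be lower, so that day 35 would have 9 members lower and 0 higher.

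Chaperones hold unfolded proteins and help them to fold. HSP70 proteins such as Hspa8 bind short exposed stretches of a client and release them in a cycle driven by ATP; J-domain proteins deliver the client and start ATP hydrolysis, while HSP110 proteins such as Hsph1 and BAG proteins exchange the nucleotide. Stip1 passes clients on to HSP90, whose own cycle is sped up by Ahsa1. The cytosolic chaperonin, built from Tcp1 and the Cct subunits, folds actin and tubulin in a closed chamber, and Hspd1 forms the like chamber in mitochondria. Many of these genes are induced together under protein stress by heat shock factors, which bind inverted repeats of the bases GAA and TTC.

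Because several of the members moved together between the last recovery days, the promoters were read for these repeats. RefSeq promoter windows (build GRCm38.p6) were at hand for 41 of the 52 members, and Hspa8, Hsp90aa1, Hspa9, Hspa13, Bag4, Cct4, Dnajc2, Dnajc5, Dnajc11, Dnajc30 and Hspd1-ps3 were not searched. The 250 bases before the start were searched on both strands for a pair of inverted repeats, GAA and TTC in either order with any 2 bases between them, and for 3 such repeats in a row, alternating and spaced alike, each of which contains pairs. Either pair reads the same way on both strands, and the 2 forms with 3 repeats are each other's reverse. A pair was found in 9 of 41 members (22 percent), against 3932 of 27018 genes with such a window (14.6 percent), and 3 in a row in 2 of 41 (4.88 percent) against 139 (0.514 percent). Of the 15 members with a window that were higher at day 35 than at day 28, 5 had a pair (Dnaja1, Dnajc10, Hspb1, Hspd1 and Hsph1), and of the other 26 members 4 did (Cct2, Cct5, Dnajb4 and Dnajb6). The matches are letters in these windows and not measured binding. Stretches of 60 bases around matches are shown 5′ to 3′ on the gene's strand, with matched bases in capitals. They are given for Dnaja1, Hsph1 and Hspb1, which rose between those days. The others are Hspd1 and Dnajb6, the members with 3 repeats in a row. Hspd1 rose between those days as well, and Dnajb6 was not among the members that did.
Dnaja1, chr4:40722318-40722377, plus strand: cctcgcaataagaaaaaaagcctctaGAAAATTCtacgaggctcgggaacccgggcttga
Hsph1, chr5:149636337-149636396, minus strand: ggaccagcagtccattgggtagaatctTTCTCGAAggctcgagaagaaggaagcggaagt
Hspb1, chr5:135887786-135887845, plus strand: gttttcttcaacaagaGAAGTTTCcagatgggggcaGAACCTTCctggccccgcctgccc
Hspd1, chr1:55088038-55088097, minus strand: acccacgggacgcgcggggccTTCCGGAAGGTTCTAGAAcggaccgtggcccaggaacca
Dnajb6, chr5:29735828-29735887, plus strand: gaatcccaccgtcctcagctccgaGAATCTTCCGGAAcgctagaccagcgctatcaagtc
Each stretch lies upstream of 1 annotated start of its gene. Those of Hspd1 and Hsph1 also lie within the span that the RefSeq gene table gives for the gene. Dnaja1, Hsph1, Hspd1 and Dnajb6 have more than 1 annotated start, and the stretch is shown for a single start.

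Of the 100 spots of members, 70 had a value on all 36 arrays. Array medians lay between -0.016 and 0.050 and array SDs between 0.17 and 0.52, and the widest array was replicate 1 of day 28. Separate mice are not stated for the 4 arrays within a day, so single-day p-values reflect array-to-array spread, possibly technical. Replicates 1 and 2 of a day, and likewise 3 and 4, resembled each other more (median r = 0.69 across features) than arrays across these pairs did (0.29). In whole lung, a change in the share of a cell type and a change of RNA within cells cannot be told apart. Ratios hold no levels, so that the tissue could not be checked by its markers.

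The members moved in both directions through hypoxia. In recovery more were lower than higher at days 22 and 28, and 9 were higher and 0 lower at day 35. A member was called on a day when its mean differed from 0 at a limma adjusted p under 0.05, adjusted over all features. At day 1, 9 members were higher and 5 lower of 52, where 19.7 percent of all features were called (10.6 percent higher and 9.04 percent lower). At day 3 the counts were 5 and 5 of 51 (23.3 percent of all features, 13.3 percent higher and 9.96 percent lower). At day 7 they were 8 and 11 of 52 (35.9 percent of all features, 20.4 percent higher and 15.5 percent lower). At day 14, 12 were higher and 6 lower of 52, against 27.8 percent of all features (15.5 percent higher and 12.2 percent lower). Only 3 were higher and 2 lower of 52 at day 21, when 4.52 percent of all features passed (2.22 percent higher and 2.3 percent lower).

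On the first day back at sea-level pressure, day 22, 0 members were higher and 4 lower of 52, where 1.56 percent of all features were called (0.756 percent lower). Day 24 had 2 higher and 1 lower of 51 (2.91 percent of all features, 0.786 percent higher and 2.12 percent lower). At day 28, 7 members were higher and 18 lower of 52, so that 34.6 percent of members were lower against 13.5 percent of all features. In either direction 32.1 percent of all features were called on that day, and 18.6 percent were higher. At day 35 the direction was the opposite, with 9 higher and 0 lower of 51: 17.6 percent of members against 1.81 percent of all features called higher. In all, 3.16 percent of features were called at day 35, and 1.36 percent were lower. The median member stood at -0.06 at day 28 and 0.05 at day 35, where all features had medians of 0.04 and -0.002. Over the 9 days there were 107 calls in 465 tests, 55 higher and 52 lower. They fell on 36 members, 7 of which were called in both directions on different days, and 16 members were called on no day. Without replicate 1 of day 28, that day had 5 higher and 15 lower. Over all features, calls at day 28 then went from 3942 of 12275 to 2173 of 11854, 1199 higher and 974 lower.

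**Figure D1:**
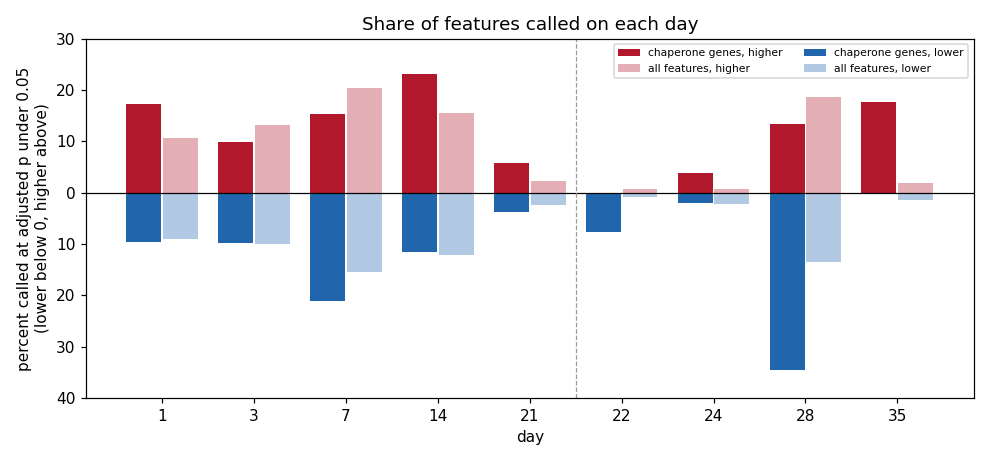
Percent of features called higher (above 0) or lower (below 0) at a limma adjusted p under 0.05 on each day, for the chaperone genes (dark bars) and all features tested (pale bars); the dashed line separates hypoxia from recovery. The dark bar reaches 34.6 percent lower at day 28 and 17.6 percent higher at day 35, where all features had 13.5 and 1.81 percent.

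**Figure D2:**
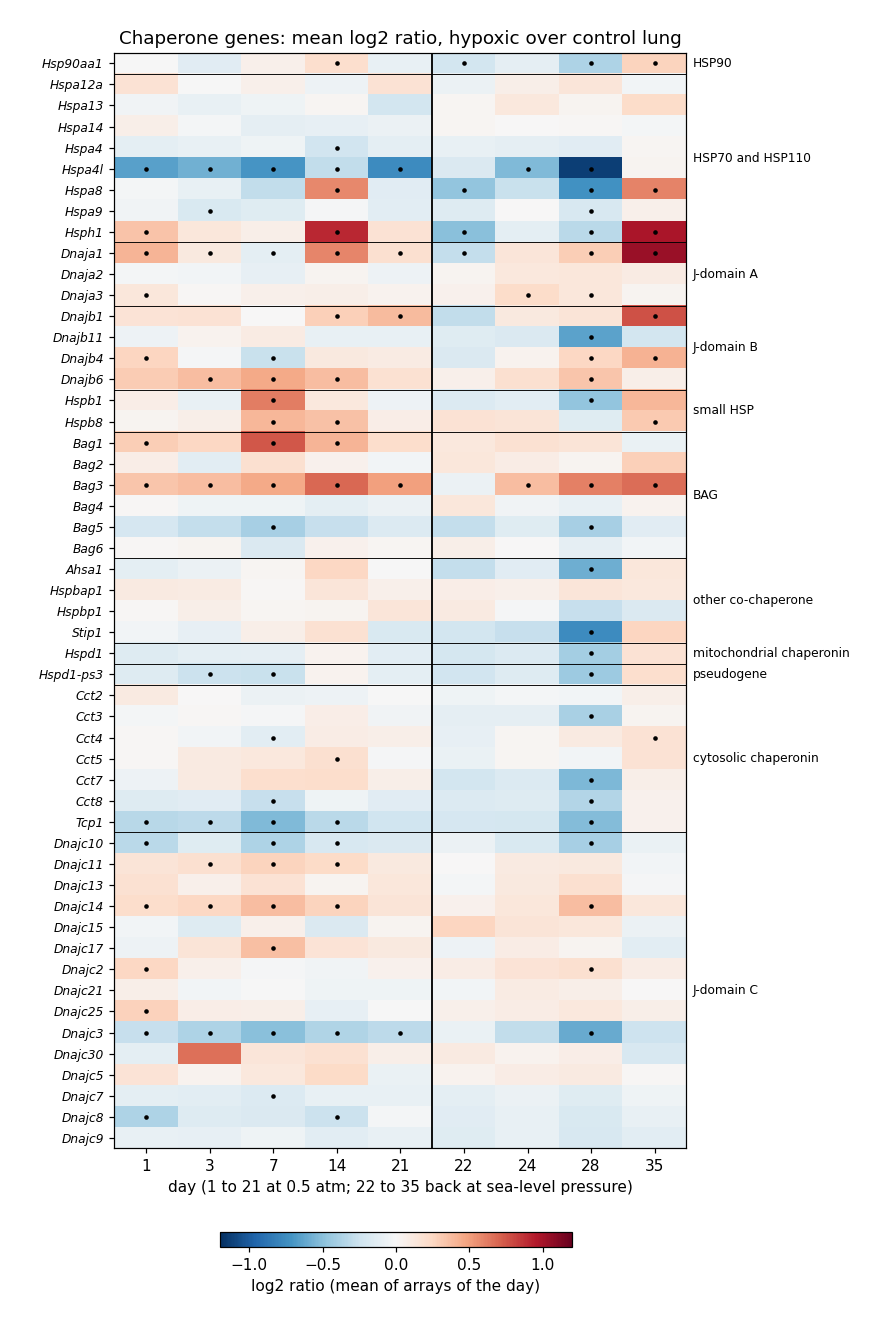
Mean log2 ratio of each of the 52 members (rows, by family) on each day (columns), with red higher and blue lower in the exposed lung; dots mark limma adjusted p under 0.05 and the vertical line separates hypoxia from recovery. The rows of Hspa8, Hsph1, Hsp90aa1, Stip1 and Ahsa1 are red at days 14 and 35 and blue at day 28, while most J-domain C rows stay pale. The HSP70 and HSP110 rows as a whole do not share this, with 2 called higher and 2 lower at day 14. Dnajc30 at day 3 rests on 2 arrays and Hspa13 at day 35 on 1, and neither was tested.

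Erythroid markers moved with the members on some of these days and not on others. Of 5 measured erythroid genes (Alas2, Hba-x, Hbb-b1, Hbb-y and Slc4a1), 4 were higher at day 14 (median 0.59), 4 lower at day 28 (median -0.46) and 4 higher at day 35 (median 1.29). Hbb-b1, a beta globin chain, stood at 0.88, -0.60 and 1.64 on those days. At day 22, however, 4 of the 5 were higher with a median of 1.13, while the members called were lower, and at day 1 the median was 0.98. The part of blood cells in the chaperone values was not tested. Of the other cell type lists, macrophage markers had 3 of 3 measured genes lower at day 14, 2 lower at day 28 and 1 lower at day 35. Neutrophil markers had 2 of 3 lower on each of these days, and smooth muscle markers had 3 of 4 higher at day 14 and 1 lower at day 28. Ighm, the only lymphocyte marker measured, was higher at day 14 (0.83) and lower at days 28 (-0.38) and 35 (-0.71). Among 2 ciliated airway and 2 alveolar type II genes, 1 of each was lower at day 28. The alveolar gene Muc1 was higher at day 14 (0.55), and the 1 muscle gene, Tnnt1, was called on none of the 3 days.

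The constitutive HSP70 Hspa8 and the HSP110 exchange factor Hsph1 were called in both directions on different days. Hspa8, the main HSP70 of unstressed cells, was measured by 6 spots. Its 4 arrays read 0.78, 0.36, 0.63 and 0.52 at day 14, -0.62, -0.36, -0.48 and -0.43 at day 22, and -1.39, -0.62, -0.28 and -0.61 at day 28. At day 35 they read 0.61, 0.67, 0.61 and 0.49. All arrays of day 35 thus lay above 0 and all of days 22 and 28 below it, with replicate 1 of day 28 the lowest by a wide margin. The mean was 0.57 ± 0.18 (SD, n = 4) at day 14, a 1.49-fold ratio (limma adjusted p = 0.000674). It was -0.73 ± 0.47 at day 28 (limma adjusted p = 3.28e-05) and 0.60 ± 0.08 at day 35 (limma adjusted p = 0.00228), a 1.51-fold ratio. Without replicate 1 of day 28, the mean of that day was -0.50 and was still called. On the remaining days, 1, 3, 7, 21 and 24, the means were -0.02, -0.09, -0.30, -0.14 and -0.27, and none passed. All 6 spots shared the sign of the gene at day 14 (0.41 to 0.74), day 28 (-0.84 to -0.54) and day 35 (0.54 to 0.64). Near-identical HSP70 copies can share signal on cDNA spots, so these values belong to Hspa8 and its closest relatives together.

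Hsph1 was higher already at day 1, with arrays at 0.32, 0.39, 0.42 and 0.23, although that call was lost without any 1 of the 4 replicate numbers. At day 14 its arrays read 1.01, 0.50, 0.99 and 1.13, and at day 35 they read 0.96, 0.88, 1.12 and 0.94. No array of day 35 lay below 0.88, and no array of day 22 (-0.77, -0.53, -0.42 and -0.30) lay above -0.30. Its mean was 0.91 ± 0.28 (SD, n = 4), 1.88-fold, at day 14 (limma adjusted p = 1.51e-06) and 0.98 ± 0.10, 1.97-fold, at day 35 (limma adjusted p = 1.17e-06). At day 3 the replicate pairs had opposite signs, 0.40 and 0.65 in replicates 1 and 2 and -0.28 and -0.24 in 3 and 4, and the mean of 0.13 did not pass. The day 28 mean of -0.32 passed (limma adjusted p = 0.0466) but without replicate 1 of that day it was -0.16 and did not. That call was also lost without replicate 2 or replicate 4. The 2 spots of Hsph1 differed in sign at day 7 (0.40 and -0.26), day 24 (0.06 and -0.28) and day 28 (0.04 and -0.68).

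Hspa4l, a testis-enriched HSP110 relative, ran the other way through hypoxia. It was lower on every hypoxia day, with means of -0.65, -0.58, -0.71, -0.30 and -0.76 at days 1, 3, 7, 14 and 21, all of which passed, that of day 14 only with replicates 2, 3 and 4 included. At day 28 its arrays read -1.76, -1.21, -0.76 and -0.79, the first of them the lowest value of any member, and the mean was -1.13 ± 0.47 (SD, n = 4), which is 0.457 of the control (limma adjusted p = 3.75e-09). At day 35 they read 0.05, 0.05, -0.02 and 0.06, so that no array of day 35 came near those of day 28. Hspa4, another HSP110 protein, stayed between -0.23 and 0.02 on all days and passed at day 14 (-0.23), a call that was lost without any 1 of the 4 replicate numbers. The mitochondrial HSP70 Hspa9 lay between -0.20 and 0.06 and was lower at days 3 (-0.18) and 28 (-0.20). Its day 3 call was lost without any 1 of the 4 replicate numbers, and its day 28 call without replicate 1, 2 or 3. Of the 8 members of this family, 4 were lower and 0 higher at day 28, where 13.5 percent of all features were lower. At day 35, 2 of 7 tested were higher, against 1.81 percent of all features.

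Hsp90aa1 was called at days 14, 22, 28 and 35, and its co-chaperones Stip1 and Ahsa1 at day 28 alone. Hsp90aa1, the inducible cytosolic HSP90, was measured by 8 spots. Its arrays read 0.20, 0.07, 0.27 and 0.26 at day 14, -0.51, -0.40, -0.27 and -0.30 at day 28, and 0.23, 0.16, 0.40 and 0.28 at day 35. The arrays of day 28 were all below 0 and those of days 14 and 35 all above it. The mean was 0.27 ± 0.10 (SD, n = 4), 1.2-fold, at day 35 (limma adjusted p = 0.00275), and that call, like the one at day 14 (0.20), was lost without replicate 3 or without replicate 4. At day 28 it was -0.37 ± 0.11 (limma adjusted p = 8.73e-06), a call kept without each replicate. All 8 spots were above 0 at day 35 (0.16 to 0.38), but 1 spot stood at 0.22 at day 28 while the other 7 lay below 0, down to -0.48. Near-identical HSP90 copies cannot be told apart on such spots.

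Stip1, which links HSP70 to HSP90, was not called before day 28. Its 2 spots differed in sign over the hypoxia phase (-0.15 and 0.13). Both were below 0 at day 21 (-0.38 and -0.08) and day 24 (-0.34 and -0.21). At day 28 Stip1 was lower, with arrays at -1.09, -0.72, -0.58 and -0.63. Its arrays at day 35 read 0.25, 0.39, 0.23 and 0.17, above every array of day 28, but their mean of 0.26 did not pass. The mean at day 28 was -0.75 ± 0.23 (SD, n = 4), 0.593 of control (limma adjusted p = 4.11e-08), from 2 spots at -1.05 and -0.46. Ahsa1, the activator of HSP90, had arrays at -1.15, -0.54, -0.20 and -0.46 on that day, a mean of -0.59 ± 0.40 (limma adjusted p = 2.1e-05), and 0.14 at day 35, which did not pass. Without replicate 1 of day 28 the Ahsa1 mean was -0.40 and was still called. The other co-chaperones, Hspbp1 and Hspbap1, were called on no day.

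**Figure D3:**
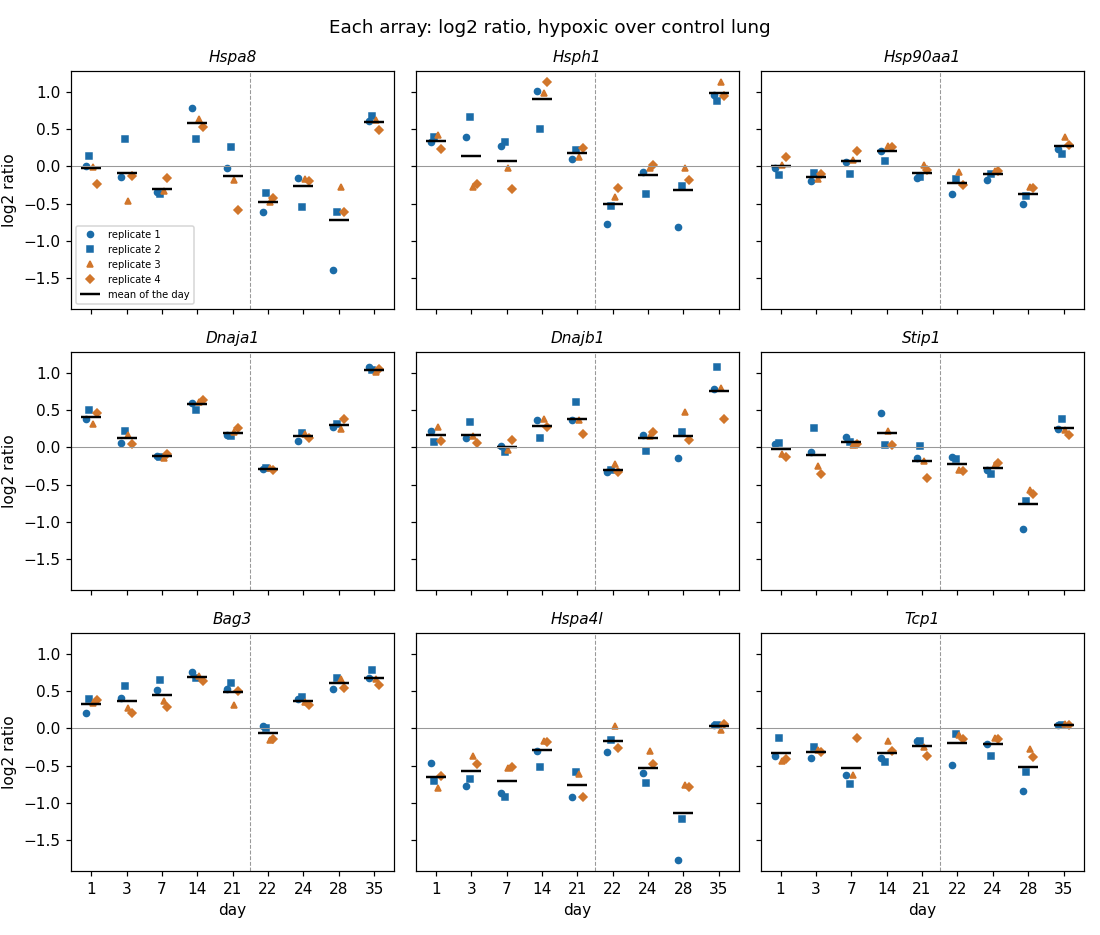
Log2 ratio of exposed over control lung on each array (points, by replicate number, with replicates 1 and 2 in blue and 3 and 4 in orange) and the mean of each day (black bars) for 9 members; the dashed line separates hypoxia from recovery. Hspa8, Hsph1, Hsp90aa1, Dnaja1 and Dnajb1 have all 4 arrays above 0 at day 35, Hspa4l and Tcp1 sit below 0 through hypoxia and near 0 at day 35, and Bag3 is above 0 on every day but 22.

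Among J-domain proteins, Dnaja1 and Dnajb1, cytosolic partners of HSP70, were called at day 35. Dnaja1, whose promoter stretch is printed above, had close arrays on most days. They read 0.37, 0.49, 0.31 and 0.45 at day 1, 0.60, 0.50, 0.60 and 0.64 at day 14, -0.29, -0.28, -0.28 and -0.31 at day 22, and 1.07, 1.03, 1.00 and 1.04 at day 35. Day 35 lay above every array of the other 8 days, and day 22 below all of them. The mean at day 35 was 1.04 ± 0.03 (SD, n = 4), a 2.05-fold ratio (limma adjusted p = 2.83e-18). Dnaja1 was called on 8 of 9 days and, unlike Hspa8, Hsph1 and Hsp90aa1, stood above control at day 28 (0.30). Its calls at days 3 (0.12) and 7 (-0.12) were lost without any 1 replicate number, and that at day 21 (0.20) without replicate 1, 3 or 4. The 3 spots lay between 0.81 and 1.19 at day 35.

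Dnajb1, the classical stress-induced J-domain protein, had arrays at 0.37, 0.60, 0.37 and 0.18 at day 21, -0.33, -0.31, -0.23 and -0.33 at day 22 and 0.78, 1.08, 0.80 and 0.39 at day 35. No array of day 22 overlapped with those of either other day. The mean at day 35 was 0.76 ± 0.28 (SD, n = 4), 1.69-fold (limma adjusted p = 4.14e-08), and its 2 spots stood at 1.02 and 0.50. Dnajb4, another cytosolic partner, was higher at day 35 (0.42, limma adjusted p = 0.000298) and lower at day 7 (-0.27), while its day 1 call (0.26) was lost without replicate 1 or replicate 2. Its day 28 value of 0.25 passed only with replicate 1 of that day included. Dnajb6, which keeps aggregation-prone proteins soluble, was higher at days 3, 7, 14 and 28 (0.34 to 0.45) and stood at 0.07 at day 35, which did not pass. A second spot of Dnajb6 had a value on 1 array only, -0.40 at day 14, where the first spot stood at 0.46. The day 28 call of Dnajb6 was lost without replicate 1 of that day, when the value was 0.24. Those of days 3 and 14 were lost without replicate 1 or replicate 2, and that of day 7 without replicate 2. Dnaja2 was called on no day, and the mitochondrial Dnaja3 had small positive values that passed at days 1 (0.13), 24 (0.22) and 28 (0.14). The calls of Dnaja3 at days 1 and 24 were lost without any 1 replicate number and that at day 28 without replicate 1, 2 or 4.

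Small heat shock proteins hold unfolded clients without ATP, and the members measured, Hspb1 and Hspb8, were both higher at day 7. Hspb1 had arrays at 0.83, 0.92, 0.37 and 0.33 at day 7 and at -0.22, -0.35, -0.69 and -0.64 at day 28. All arrays of day 7 were positive and all of day 28 negative, and on both days replicates 1 and 2 read higher than 3 and 4. Its mean was 0.61 ± 0.30 (SD, n = 4), 1.53-fold, at day 7 (limma adjusted p = 0.000412), and -0.47 ± 0.23 at day 28 (limma adjusted p = 0.00521), a call lost without replicate 3. At day 35 the arrays read 0.56, 0.60, 0.30 and 0.12, and the mean of 0.40 did not pass. At day 3 replicate 1 read 0.38 and the other 3 between -0.34 and -0.18. Hspb8, the partner of Bag3 in clearing misfolded proteins, was higher at days 7 (0.40), 14 (0.35) and 35 (0.32), the last with arrays between 0.29 and 0.34. That call was lost without replicate 4.

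BAG proteins split by member. Bag3, which couples HSP70 and small heat shock proteins to autophagy, was raised on every day but day 22, with means of 0.33, 0.37, 0.45, 0.69 and 0.49 over hypoxia and 0.37, 0.60 and 0.67 at days 24, 28 and 35. All 8 of these passed. At day 22 its arrays read 0.03, 0.00, -0.15 and -0.14 against 0.53, 0.61, 0.31 and 0.51 a day earlier, with no overlap. Bag1, which binds HSP70 and the proteasome, peaked at day 7, with arrays at 0.82, 0.99, 0.55 and 0.63 and a mean of 0.75 ± 0.20 (SD, n = 4), 1.68-fold (limma adjusted p = 1.59e-06). By day 35 its arrays were at 0.03, 0.19, -0.27 and -0.25, and their mean of -0.08 did not pass. Bag5 was lower at days 7 (-0.40) and 28 (-0.40), and without replicate 1 of day 28 the latter was -0.24 and did not pass. Bag2, Bag4 and Bag6 were called on no day.

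Tcp1, a subunit of the cytosolic chaperonin, had arrays at -0.62, -0.75, -0.62 and -0.13 at day 7, -0.84, -0.58, -0.28 and -0.39 at day 28, and 0.05, 0.04, 0.06 and 0.04 at day 35. Day 35 lay above both other days on every array. The mean at day 28 was -0.52 ± 0.25 (SD, n = 4), 0.696 of control (limma adjusted p = 1.33e-05). The 2 spots of Tcp1 differed in size, at -0.58 and -0.11 over the hypoxia phase. Of the 7 subunits measured, Tcp1, Cct3 (-0.39), Cct7 (-0.54) and Cct8 (-0.35) were lower at day 28 (13.5 percent of all features) and none was higher. The other 3, Cct2, Cct4 and Cct5, stood at -0.04, 0.11 and -0.04 and did not pass. Cct2 had 2 spots of opposite sign over the hypoxia phase, -0.15 and 0.15. At day 35 Cct4 alone was higher (0.17), and this call was lost without any 1 replicate number. Cct4 was lower at day 7 (-0.12), a call lost without replicate 1, 2 or 3, and Cct5 was higher at day 14 (0.19), a call lost without replicate 3 or replicate 4. The mitochondrial Hspd1 had arrays at -0.46, -0.46, -0.29 and -0.41 at day 28, a mean of -0.40 ± 0.08 (limma adjusted p = 7.8e-06), and arrays at 0.19, 0.07, 0.29 and 0.13 at day 35, whose mean of 0.17 did not pass. The pseudogene Hspd1-ps3 read -0.43 and 0.20 on the same days, and its spot and those of Hspd1 cannot be told apart by these data.

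The BAG proteins Bag3 and Bag1 were higher and Hspa4l and Tcp1 lower over the hypoxia phase as a whole. Averaged over it, with the day as the unit, 8 members were higher and 10 lower of 51, or 35.3 percent. Of all features 42.4 percent were called, 24.7 percent higher and 17.7 percent lower. The share of members was thus no larger than the background. Bag3 (0.47 ± 0.14, SD over days, n = 5), Bag1 (0.38 ± 0.22), Dnajb6 (0.34 ± 0.10) and Dnajc14 (0.25 ± 0.08) passed over the phase with means above 0 on all 5 hypoxia days, as did Dnajc11 (0.19) and Hspb8 (0.19). Hspa4l (-0.60 ± 0.18), Dnajc3 (-0.36 ± 0.08), Tcp1 (-0.35 ± 0.11), Bag5 (-0.27 ± 0.09), Dnajc10 (-0.24 ± 0.10) and Dnajc8 (-0.20 ± 0.13) passed with means below 0 on all 5. Their limma adjusted p lay between 0.000546 for Dnajb6 and 0.0485 for Hspb8. The calls of Hspb8 and Cct8 (-0.15) were lost without replicate 3 or without replicate 4, and that of Hspa4 (-0.12) without replicate 1. These 3 calls were also lost without some single days. Hspa8 (0.01), Hsph1 (0.32), Hsp90aa1 (0.01) and Dnaja1 (0.24) did not pass over the phase.

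Dnajc3 and Dnajc10 belong to the endoplasmic reticulum, where Dnajc3 also restrains the kinase PERK and Dnajc10 breaks disulfide bonds. Dnajc3 read -0.58, -0.53, -0.66 and -0.63 on the arrays of day 28, and its 3 spots agreed in sign over hypoxia. Dnajb11, a further partner of the reticulum's HSP70, had its only call at day 28 (-0.64 ± 0.15, SD, n = 4), with arrays between -0.87 and -0.53. Dnajc3, Dnajc10 and Dnajb11 were lower on that day, while Hspa13 stood at 0.03 and was not called. Dnajc14, of the reticulum membrane, was higher (0.37). A list of other reticulum genes, which the symbol rule leaves out, holds chaperones and the stress factors Atf4, Atf6 and Xbp1. Of its 13 genes measured, 11 were lower at day 28, Xbp1 among them, and 1, Atf6, was higher (median -0.62). At day 35, where 9 members were higher, 0 of those 13 were higher and 1, Hspa5, was lower (median -0.16). At day 14, 3 were higher and 2 lower.

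Over the recovery phase 1 member was higher and 3 lower of 51, or 7.84 percent. Of all features 4.77 percent were called, 1.65 percent higher and 3.12 percent lower. Bag3 was higher (0.39 ± 0.33, SD over days, n = 4), though not at day 22, and Dnajc3 (-0.31 ± 0.22), Dnajb11 (-0.29 ± 0.23) and Bag5 (-0.24 ± 0.12) were lower. These calls rested on single days and libraries. The count was 0 without day 28, 0 without day 24 and 0 without day 3, 1 without day 22 and 8, all lower, without day 35. It was 2 without day 1, 14 or 21, and 2 without replicate 1 or replicate 4. Calls over all features fell too, from 580 of 12159 to 2 without day 28, 0 without day 24, 13 without day 3 and 12 without day 22. Without day 35 they numbered 592. No member differed between the phases in limma's test (0 of 51, with 7 at an unadjusted p under 0.05), where 0.0329 percent of all features passed.

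Dnajb1, Dnaja1 and Bag3 fell between the last day of hypoxia and the first day at sea-level pressure. Between days 21 and 22, 0 were higher and 3 lower of 52, where 0.609 percent of all features were called (0.239 percent lower). Dnajb1 changed by -0.68 ± 0.12 (SE, limma adjusted p = 0.000899), Bag3 by -0.55 ± 0.08 (limma adjusted p = 0.000162) and Dnaja1 by -0.49 ± 0.06 (limma adjusted p = 5.86e-06). These 3 were kept without each replicate number, but in replicates 1 and 2 alone 0 members passed, where 26 of 11084 features did. The call of Dnajb1 was also lost in replicates 3 and 4 alone and with replicate pairs as a random block, and those of Bag3 and Dnaja1 with only the days compared. Without replicate 1 of day 28 the count was 5, with Hsph1 at -0.68 (limma adjusted p = 0.0385). Over all features 80 of 12150 passed in that setting, against 74 in the main fit. Arrays did not overlap for 8 members that were lower at day 22 and 1 that was higher, Hspa4l, where 2.49 and 1.98 percent of all features did not overlap in those directions. The calls against control at day 22, Hsph1 (-0.50 ± 0.20, SD, n = 4), Hspa8 (-0.47 ± 0.11) and Hsp90aa1 (-0.22 ± 0.12), were lost when any 1 of the 4 replicate numbers was left out, while that of Dnaja1 was kept. Between days 21 and 22, 2 of 5 erythroid markers (Hbb-b1 and Hbb-y) rose, with a list median of 0.68, as did the neutrophil markers S100a9 (2.52) and Ltf (0.65) and the macrophage marker Fcgr3 (0.45). Their part in the members' falls was not tested.

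Between days 28 and 35, 18 members rose and 0 fell of 51, or 35.3 percent, where 13.4 percent of all features were called, 5.54 percent higher and 7.81 percent lower. The median difference of the members was 0.13, against -0.03 for all features. Hspa8 rose by 1.32 ± 0.17 (SE, limma adjusted p = 1.96e-06), 2.5-fold, and Hsph1 by 1.29 ± 0.17 (limma adjusted p = 3.56e-06), 2.45-fold. Hspa4l rose by 1.16 ± 0.15, from far below control to its level, and Stip1 by 1.01 ± 0.12. Hspb1 (0.87), Dnaja1 (0.74), Ahsa1 (0.73), Hsp90aa1 (0.64) and Hspd1 (0.57) followed. These 9 kept their call without each replicate number. Leaving out replicate 1 of every day brought the count to 9, since Cct3, Cct7, Cct8, Tcp1, Dnajb1, Dnajb11, Dnajc10, Hspb8 and Hspd1-ps3 then did not pass. Without replicate 1 of day 28 alone 14 passed, and Hspa8 differed by 1.10 and Hspa4l by 0.95. Over all features, calls went from 1634 of 12234 to 345 of 12367 (227 higher) without replicate 1 of every day. They went to 651 of 11828 (353 higher) without replicate 1 of day 28 alone.

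The rises of these 9 also passed within each replicate pair. Hspa8 differed by 1.65 in replicates 1 and 2 and by 1.00 in replicates 3 and 4, Hsph1 by 1.46 and 1.13, and Hspa4l by 1.54 and 0.79. Dnaja1 (0.76 and 0.71), Hsp90aa1 (0.65 and 0.63) and Hspb1 (0.87 and 0.87) differed by nearly the same amount in both. Replicates 3 and 4 alone called 11 members, where 672 of 11813 features were called (335 higher). Dnajb1 was at 0.90 in the former pair and 0.31 in the latter (limma adjusted p = 0.244), and Cct7 at 0.80 and 0.41. Arrays of day 35 lay wholly above those of day 28 for 20 members and wholly below for 1, Hspa12a, where 7.98 and 13.4 percent of all features did so. With the replicate number as a block, Hspa9 also passed (0.25, limma adjusted p = 0.0293). With replicate pairs of a day as a random block (consensus correlation 0.43), 13 members passed, and Cct3, Cct7, Cct8, Dnajb11 and Dnajc10 did not, while the calls over all features went from 1634 to 353. All 5 measured erythroid markers rose in this step as well, with a median of 1.76. Of the 13 genes of the reticulum list, 9 rose, the stress factor Atf4 among them, and 1, Atf6, fell (median 0.50). Of 4 measured smooth muscle genes 2 rose, and so did the neutrophil marker Lcn2 (1.17) and the macrophage marker Fcgr3 (0.37). The part of these in the members' rise was not tested.

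**Figure D4:**
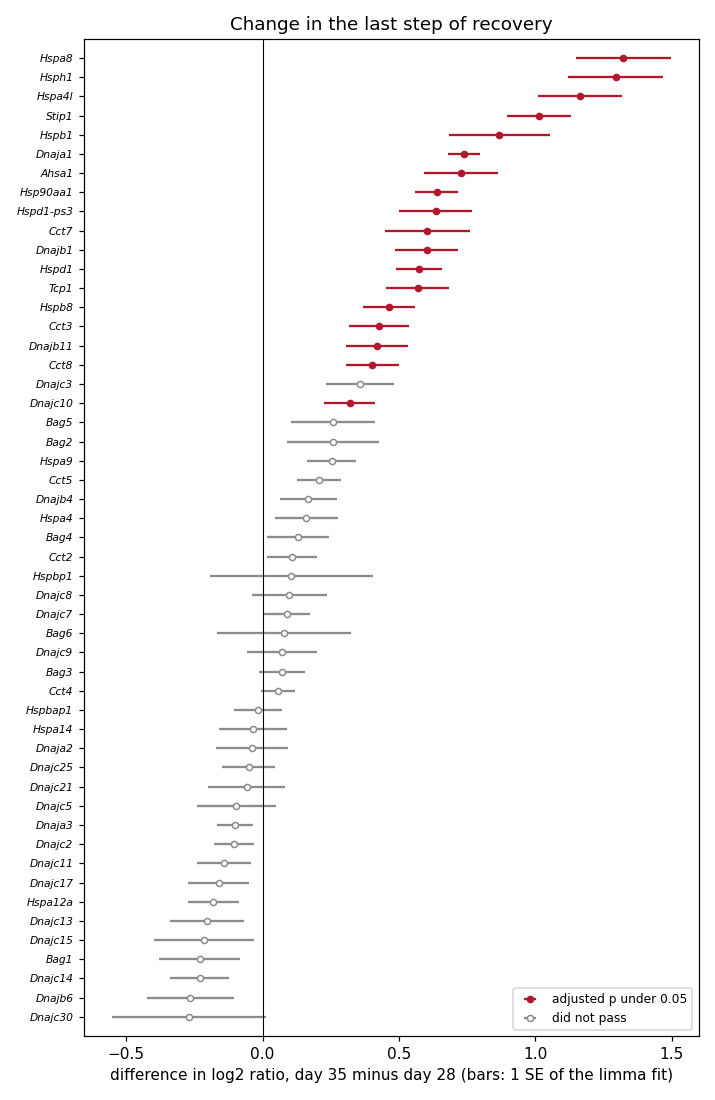
Difference in log2 ratio between day 35 and day 28 for the 51 members tested (points, with bars of 1 SE of the limma fit), in order of size; filled red points passed a limma adjusted p under 0.05. The 18 that passed are all on the positive side, from Dnajc10 at 0.32 to Hspa8 at 1.32.

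Set against the last day of hypoxia, day 35 was higher for 5 members and lower for 0 of 51, where 1.07 percent of all features were called (0.719 percent higher). Dnaja1 rose by 0.84 ± 0.06 (SE, limma adjusted p = 4.02e-11), Hsph1 by 0.80 ± 0.18 (limma adjusted p = 0.0101), Hspa4l by 0.79 ± 0.15 (limma adjusted p = 0.00272), Hspa8 by 0.73 ± 0.17 (limma adjusted p = 0.0228) and Hsp90aa1 by 0.35 ± 0.08 (limma adjusted p = 0.0137). Of these, Dnaja1 kept its call under every alternative. Hspa8 and Hsph1 lost it without replicate 1, 3 or 4, Hspa4l without replicate 4, and Hsp90aa1 without any 1 of them. The count was thus 1 without replicate 4 and 2 without replicate 1 or replicate 3. Over all features, 131 calls became 66, 73 and 57 in those settings. With the replicate number as a block the count was 7, with Hspb1 (0.45, limma adjusted p = 0.0386) and Stip1 (0.44, limma adjusted p = 0.0296) added. Over all features 220 passed with this block. Arrays did not overlap for 14 members that were higher and 1 that was lower, where 3.72 and 3.37 percent of all features did so. Among erythroid markers 3 of 5 rose between these days (median 0.94).

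Other genes of the folding pathway, from a list of partners that are no members, were read beside the members. Of 45 listed, 34 were tested, and the 4 heat shock factors were not among them. At day 35, 4 were higher and 0 lower: Chordc1, an HSP90 partner induced by heat, Zfand2a, an arsenite- and heat-induced zinc finger protein, the stress factor Atf3, and Hmox1, which degrades heme. At day 28, 4 were higher and 6 lower, among the latter Fkbp4 and St13, co-chaperones of HSP90 and HSP70. At day 14, 5 were higher and 3 lower, and over the hypoxia phase 7 and 6. Between days 28 and 35, 6 rose (Chordc1, Fkbp4, Fkbp5, Hmox1, Serpinh1 and St13) and 1 fell (Sugt1). The list's median was -0.02 at day 35 and 0.04 for that step. None of 5 measured prefoldin subunits, which hand clients to the cytosolic chaperonin, and none of 10 mitochondrial folding proteins and proteases was called at day 35.

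The 15 C-class J-domain proteins, a mixed group that includes spliceosomal and mitochondrial inner membrane proteins had calls in both directions. At days 1 and 7, 3 were higher and 3 lower, where 19.7 and 35.9 percent of all features were called. At day 28, 2 were higher and 2 lower (32.1 percent of all features). None of the 15 was called at day 35 (3.16 percent). Dnajc14, a protein of the reticulum membrane, was higher at days 1, 3, 7 and 14 (0.21 to 0.37) and at day 28 (0.37), where replicate 1 read 0.70. Its day 1 call was lost without any 1 replicate number. That of day 3 was lost without replicate 3 or replicate 4, and that of day 14 without replicate 4. Dnajc11, of the mitochondrial membrane, passed at days 3, 7 and 14 (0.19, 0.27 and 0.23). All 3 calls were lost without replicate 1. Dnajc8, a splicing protein, was lower at day 1 (-0.37), a call lost without replicate 3 or replicate 4, and at day 14 (-0.25), a call lost without any 1 replicate number. In this class 4 of 15 members were higher and 5 lower over the hypoxia phase, where 42.4 percent of all features were called.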

How the data were processed

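The authors deposited log2 ratios per spot, background corrected, with poor spots removed, and normalised by lowess, per the labels' protocols (GenePix 4000A scanner, GenePix Pro 4.0). They were used as they stand, and channel intensities were not used here. Of 15388 spots, 9598 had 1 symbol in the platform annotation, 514 several and 5276 none; 9510 named spots matched RefSeq of GRCm38.p6. Spots of a gene were averaged (6971 genes, 12761 features with unnamed spots). Tests used limma 3.58.1 in R 4.3.3 with Benjamini-Hochberg adjustment over all features and a threshold of 0.05. Phases were fitted on 9 day means (at least 2 arrays a day), single days and their differences on 36 arrays (at least 3 of 4). The fits were tested on simulated data. Hspa13 had too few values for the phases.

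The members, the lists of pathway and marker genes and the tests were chosen with earlier results of these data known. Named members are up to 6 in each direction per phase or difference and up to 3 per day (all arrays of 1 sign), plus 24 measured core chaperones. Others stand in counts, or were named after their values were seen.

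Same-numbered arrays deviated together across the days compared (r = 0.24 to 0.67 in 12 of 12 pairs), so the replicate number was tried as a block; each number matched its own best in 6 of 12. Labels do not say what a number marks. The alternatives were median centring, a common spread, limits on missing values, medians of spots, single spots, trend and robust moderation, the days compared alone, replicate pairs as a random block, and left-out days, replicates and pairs. Leaving out replicate 1 of day 28 was added after seeing the data.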

Additional observations from a re-analysis of the deposited data

Results flagged for a closer look

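Among 295 sets of 4 arrays for 33 named members, 14 held an array far from the other 3 by Dixon's ratio, about what chance gives (1 in 20). At day 28 these were replicate 1 for Dnajc14 (0.70) and replicate 3 for Dnajc11 (0.20), and at day 35 replicate 3 for Hspa4l (-0.02). At day 24 they were replicate 2 for Hspa8 (-0.55) and Cct7 (-0.42) and replicate 4 for Dnaja3 (0.18). At day 22 replicate 3 stood apart for Cct3 (-0.21) and Cct7 (-0.34). At day 7 it was replicate 3 for Cct2 (-0.19) and Hspb8 (0.29) and replicate 2 for Dnaja2 (-0.21) and Dnajb4 (-0.35). At day 3 it was replicate 3 for Bag1 (0.12) and Dnaja3 (0.09). Among 66 sets of day means, 2 days stood apart: day 28 for Dnajb11 among recovery days (-0.64) and day 14 for Hspd1 among hypoxia days (0.04).

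The limma tests of differences between days called 26 changes. From day 21 to day 22 they were Dnajb1 (-0.68), Bag3 (-0.55) and Dnaja1 (-0.49). From day 21 to day 35 they were Dnaja1 (0.84), Hsph1 (0.80), Hspa4l (0.79), Hspa8 (0.73) and Hsp90aa1 (0.35). From day 28 to day 35 the HSP70 and HSP110 genes Hspa8 (1.32), Hsph1 (1.29) and Hspa4l (1.16) changed. So did the HSP90 group of Stip1 (1.01), Ahsa1 (0.73) and Hsp90aa1 (0.64), and the J-domain genes Dnaja1 (0.74), Dnajb1 (0.60), Dnajb11 (0.42) and Dnajc10 (0.32). Hspb1 (0.87) and Hspb8 (0.46), Hspd1 (0.57), Hspd1-ps3 (0.64) and the chaperonin genes Cct7 (0.60), Tcp1 (0.57), Cct3 (0.43) and Cct8 (0.40) made up the rest.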

How the results depend on the processing

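No result of a named member that passed the threshold, here or under an alternative, changed direction. Changes of sign among results that passed in neither were not counted. Of 3703 recomputed values of named members, 3452 kept their side of the threshold, 214 lost and 37 gained a call. Of 85 named calls, 38 held under every alternative, among them all 3 named at day 35 (Dnaja1, Dnajb1 and Hsph1), the day 14 rises of Bag3, Dnaja1 and Hsph1, and the day 28 falls of Hspa4l, Hspa8 and Stip1.

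The recovery count of 4 was 17 (8 higher, 9 lower) with arrays scaled to a common spread and 0 with trend and robust moderation. It was 2 without day 1, 14 or 21, 1 without day 22, 0 without day 3, 24 or 28, 8 without day 35 and 2 to 3 without a replicate. Over all features the recovery calls went from 580 of 12159 to 3155 with the common spread and 0 with trend and robust moderation. Between days 21 and 22 the count of 3 was 5 with a common spread, 5 without replicate 1 of day 28, 1 with only the days compared and 0 in replicates 1 and 2 alone. All features had 74 calls for this difference, and 134, 80, 16 and 26 in those settings. Between days 21 and 35 the count of 5 was 13 with a common spread, 3 with only the days compared and 2 with replicate pairs as a random block (consensus correlation 0.43). It was 6 without replicate 1 of day 28, 1 in replicates 1 and 2 alone and 1 to 4 without a replicate. All features had 131 calls for this difference, 407 with a common spread, 85 with only the days compared and 60 with the random block. They had 146 without replicate 1 of day 28 and 57 in replicates 1 and 2 alone. Between days 28 and 35 the count of 18 was 11 in replicates 3 and 4 alone and 9 to 18 without a replicate. All features had 1634 calls for this difference, 672 in replicates 3 and 4 alone and 345 to 1266 without a replicate. The 107 calls of single days were 62 with only the days compared, 59 with the random block and 73 to 89 without a replicate. The cause was not tested. The hypoxia count and the difference between phases stayed within 1.5 times.

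The replicate block gave 4, 7 and 20 calls between days 21 and 22, 21 and 35, and 28 and 35, and 126 on single days. Over all features it gave 140, 220 and 2464 calls for those differences. It changed no named call beyond those of Hspa9, Hspb1 and Stip1 in the report. Signal over background was not used; 4 arrays a day limit the precision.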
